A study of Mus musculus with 4 samples.

Results

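Chemokine ligands, the small secreted proteins that direct the movement of leukocytes, were followed through the ChAT-eGFP+ cells of the stromal vascular fraction (SVF) of mouse inguinal white adipose tissue (IWAT). ChAT is choline acetyltransferase, the enzyme that makes acetylcholine, and ChAT-eGFP marks cells in which a bacterial artificial chromosome carrying the Chat gene drives a green fluorescent protein. The members were all genes whose symbol is Ccl or Cxcl followed by a digit, with Cx3cl1, Xcl1 and Pf4, that held 20 or more unique molecular identifiers (UMIs) over the 4 libraries. Of 45 such rows among the 31053 genes, 34 held any UMI and 32 were members, beside 16799 genes in all at or above 20 UMIs. Closest to that limit, Cxcl17 was a member with 24 UMIs, Cxcl3 with 37, while Ccl28 with 6 UMIs and Cxcl5 with 3 were not.

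All mice were male and carried the ChATBAC-eGFP transgene, entered the study at 5 weeks of age and spent 3 weeks at thermoneutrality (30 °C). In the 30 °C group (2 libraries) they stayed there, and in the 4 °C group (2 libraries) they were moved to cold for 4 h after a day at room temperature, a step the 30 °C group did not share. Each library pooled the sorted cells of 4 mice, so the spread between 2 libraries of a group is that between pools. Fluorescence was the only sorting criterion besides viability and single cells, so the cells hold every type that carries the transgene's signal.

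The 4 libraries held 6272 to 6883 barcodes and 76058112 to 84468931 UMIs, and 21253 cells passed the filters. Of these, 19103 were placed in 12 cell types by gates of marker genes that include no chemokine ligand, 1001 met the gate of more than 1 type and 1149 met none. The gates carried their names, in levels given as CPM (the UMIs of a gene in the summed cells of a library, per 1000000 UMIs of those cells). Gated macrophages had a mean of 4600 CPM of C1qa against 2.23 in B cells, gated mature dendritic cells (DCs) had 1521 CPM of Fscn1 against 0.540, and gated stromal cells had 11748 CPM of Dcn against 0.547. The weakest gate was that of group 2 innate lymphoid cells (ILC2s), where Il13 was at 588 CPM but Hs3st1, another marker of its list, was lower (2.88 CPM) than in B cells (42.7 CPM). Their summed list was at 751, 587, 988 and 1187 CPM over the 30 °C and then the 4 °C libraries. The αβ T cell list in them (4 of 6 genes detected) was higher, at 1310, 1224, 1707 and 1632 CPM. The mast cell list in them was at 777 CPM in 4 °C replicate 1 and at most 1.39 CPM elsewhere. The part of these lists in the ILC2 ligand values was not tested. Pairs of libraries shared 10 to 18 barcodes, of which 5 to 14 were among the cells kept. The library of 4 °C replicate 1 stood apart with 439 gated macrophages, against 164 and 181 at 30 °C and 159 in 4 °C replicate 2.

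Chemokines are named by the spacing of their first cysteines (CCL, CXCL, CX3CL and XCL) and signal through G protein-coupled receptors on the cells they attract. Some are made at rest and keep cells in place or in lymphoid tissue, such as Cxcl12, Cxcl13 and Ccl19, and others are switched on by inflammatory signals, such as Ccl2 for monocytes or Cxcl1 and Cxcl2 for neutrophils. In fat, macrophages are known as a source of many of them. Most of the genes lie in a few clusters left by gene duplication, so neighbours often resemble each other in sequence.

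The members sat close together on the genome (mm10, GENCODE M21 coordinates). Ccl2, Ccl7, Ccl11, Ccl12, Ccl8 and Ccl1 span 270 kb at chr11:82035571-82305690. Ccl5, Ccl9, Ccl6, Ccl3 and Ccl4 span 139 kb at chr11:83525778-83664683. Pf4, Cxcl3, Cxcl1 and Cxcl2 span 134 kb at chr5:90772435-90905938, with Cxcl9 and Cxcl10 farther along at chr5:92321347-92348889. Ccl22, Cx3cl1 and Ccl17 span 66.4 kb at chr8:94745590-94812036. RefSeq's promoter table (GRCm38, the assembly of mm10) gave a promoter for 24 of the 32 members. It holds none for Ccl2, Ccl4, Ccl5, Ccl7, Ccl11, Ccl24, Cxcl16 and Cxcl17.

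The 150 bases before the start site are printed for 6 members whose neighbours or responses are compared further on. Cxcl1, Cxcl2 and Cxcl3 are neighbours in the cluster on chromosome 5. Ccl12 and Ccl8 are neighbours on chromosome 11 that differed in their values at 4 °C, and Ccl17 was the member that reached 0 in macrophages. All are on the + strand, 5′ to 3′, and capitals mark matches to the letters TATAAA, the TATA box, or TGANTCA, the AP-1 site.
Cxcl3 (chr5:90785951-90786100, + strand): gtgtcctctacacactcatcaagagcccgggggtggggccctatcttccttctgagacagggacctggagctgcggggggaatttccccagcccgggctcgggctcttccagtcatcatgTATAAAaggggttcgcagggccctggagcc
Cxcl1 (chr5:90891095-90891244, + strand): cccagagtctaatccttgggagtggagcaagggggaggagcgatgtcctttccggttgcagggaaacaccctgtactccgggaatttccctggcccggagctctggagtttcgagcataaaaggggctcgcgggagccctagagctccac
Cxcl2 (chr5:90903749-90903898, + strand): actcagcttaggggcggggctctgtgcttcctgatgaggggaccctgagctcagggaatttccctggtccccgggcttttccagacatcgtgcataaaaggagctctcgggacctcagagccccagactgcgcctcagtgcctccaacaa
Ccl12 (chr11:82101695-82101844, + strand): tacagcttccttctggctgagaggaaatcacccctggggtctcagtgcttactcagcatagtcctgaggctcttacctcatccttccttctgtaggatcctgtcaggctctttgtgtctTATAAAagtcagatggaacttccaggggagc
Ccl8 (chr11:82115035-82115184, + strand): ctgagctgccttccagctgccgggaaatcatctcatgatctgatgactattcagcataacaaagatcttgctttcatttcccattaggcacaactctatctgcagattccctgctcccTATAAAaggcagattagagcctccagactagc
Ccl17 (chr8:94810303-94810452, + strand): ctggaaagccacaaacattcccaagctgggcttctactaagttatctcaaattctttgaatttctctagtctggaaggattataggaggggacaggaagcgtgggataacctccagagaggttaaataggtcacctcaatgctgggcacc

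In the 250 bases before the start, on both strands, TATAAA was found in 8 of the 24 members with a promoter and in 12.4% of all 32851 promoters of that table. TGANTCA was found in Ccl9, Ccl27a and Cxcl10 and in 6.75% of all. TGANTCA reads the same on both strands, so each of its matches counts once. Of the printed sequences, those of Cxcl3, Ccl12 and Ccl8 hold TATAAA and those of Cxcl1, Cxcl2 and Ccl17 hold neither motif. These matches describe the letters of the windows, and the few members were not tested against the rest.

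The source of each ligand was taken as the gated type with the highest mean level over the 4 libraries, in CPM of the UMIs summed per library and type. A level is a count of molecules tagged at their 3′ end, 1 per molecule, so it was not divided by gene length. Macrophages were the source of 12 members, stromal cells of 7, mature DCs of 6, lymphatic endothelial cells of 3, Eomes+ Nkg7+ T cells of 2, and Foxp3+ T cells and ILC2s of 1 each. B cells, germinal centre B cells, plasma cells, γδ T cells and the other αβ T cells were the source of none. For 14 of the 32 members the source lay above the next type in all 4 libraries, a condition that 24.3% of all genes with 20 or more UMIs met. Those 14 were Pf4, Ccl6, Ccl9, Ccl8, Cxcl2, Ccl24 and Ccl12 in macrophages, Ccl5, Ccl22, Cxcl16 and Cx3cl1 in mature DCs, Ccl11 and Cxcl14 in stromal cells, and Cxcl17 in lymphatic endothelial cells. With cells grouped by clustering in place of the gates, 25 of the 32 members had the same source, and by UMIs per cell in place of CPM 29 had.

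**Figure D1:**
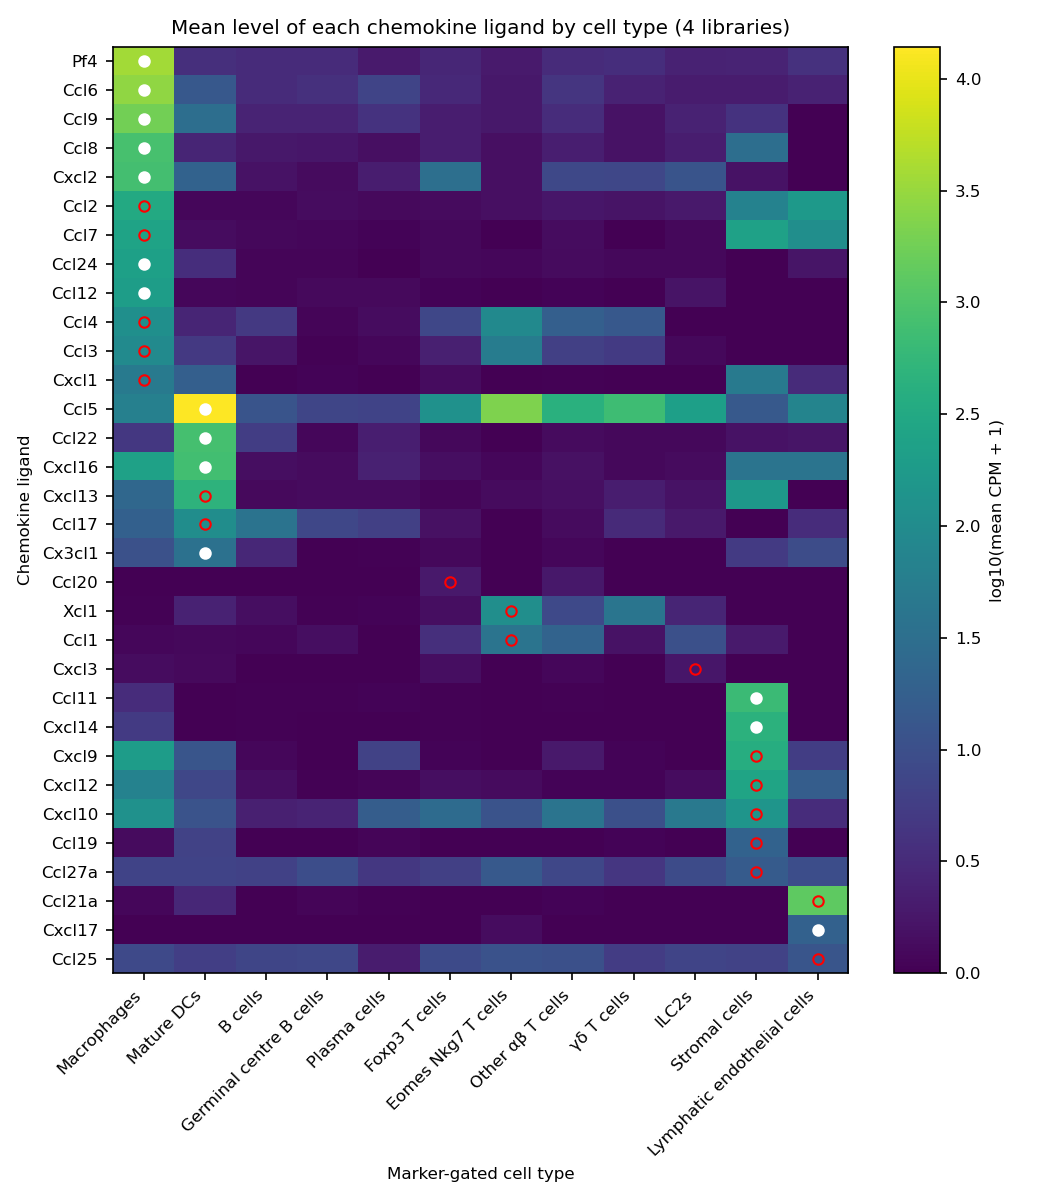
Mean level of the 32 chemokine ligands (rows, by source) in the 12 gated cell types (columns), as log10(mean CPM + 1) over 4 libraries. Filled white points mark a source above the next type in all 4 libraries (14 members), and open red circles mark the other sources, among them most of those in stromal cells and T cells.

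Macrophages held 46.5% of all chemokine UMIs of gated cells. Pf4, a chemokine better known from platelets, led with 31.6% of the macrophage chemokine UMIs, ahead of Ccl6 (22.3%) and Ccl9 (14.1%), both ligands of Ccr1. The mean level of Pf4 was 3639 CPM in macrophages and 2.92 CPM in the next type. Platelets are another known source of Pf4. The summed level of their list (Ppbp, Gp9, Itga2b and Gp1bb) in macrophages was 11.3 and 15.7 CPM at 30 °C against 2.91 and 3.40 CPM at 4 °C, with 2 of the 4 genes detected. For 10 of the 12 members with macrophages as source, the level in B cells was 0.0494% to 0.0999% of that in macrophages. The exceptions were Ccl3 (0.761%) and Ccl4 (3.36%), inflammatory ligands that the Eomes+ Nkg7+ T cells also held, at a mean of 52.9 and 92.4 CPM.

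Mature DCs held 29.5% of the chemokine UMIs in far fewer cells (49 to 100 per library). Ccl5, a ligand made by many activated leukocytes, accounted for 84.7% of theirs. Its level was 10977 and 18041 CPM at 30 °C against 10890 and 15664 CPM at 4 °C, and the lowest DC library lay above the highest of any other type, 3701 CPM in Eomes+ Nkg7+ T cells. Ccl22, a Ccr4 ligand that draws regulatory T cells, was at a mean of 823 CPM in DCs and 4.62 CPM in B cells, the next type. Cxcl16, a membrane-bound ligand of Cxcr6, was at 783 CPM in DCs and 235 CPM in macrophages. Ccl17, the other Ccr4 ligand, was highest in DCs (108 CPM) and lower in B cells (37.4 CPM), but B cells were so many that they held 81.4% of its UMIs. Cx3cl1, the membrane-bound ligand of Cx3cr1, showed the same split, with a mean of 34.7 CPM in DCs while B cells held 39.1% of the UMIs.

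Stromal cells were few (27 to 40 per library) and their depth differed with temperature, from a median of 4202 and 3760 UMIs per cell at 30 °C to 11463 and 11955 at 4 °C. Ccl11, or eotaxin, which draws eosinophils, was theirs: 241, 628, 797 and 1033 CPM over the 30 °C and then the 4 °C libraries, against a mean of 2.31 CPM in macrophages. Cxcl14 ran from 64.7 to 712 CPM in stromal cells and was at 4.04 CPM in macrophages. Cxcl12, the ligand of Cxcr4 that retains cells in tissue, had its highest mean in stromal cells (261 CPM), but macrophages held 62.8% of its UMIs. Lymphatic endothelial cells (8 to 32 per library) were led by Ccl21a, the ligand that guides Ccr7+ cells into lymphatics. Its level there was 2.99 and 105 CPM at 30 °C against 3918 and 1202 CPM at 4 °C, and in each library all of it came from 1 cell. Ccl2 in these cells was at 102, 0, 30.4 and 549 CPM and Ccl7 at 17.9, 0, 106 and 312 CPM over the same libraries. These cells were too few for a test between temperatures.

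Among lymphocytes, Ccl5 led every T cell type and the ILC2s. Eomes+ Nkg7+ T cells held 288 and 3701 CPM of it at 30 °C and 1263 and 3586 CPM at 4 °C, so replicates differed more than the groups. The other αβ T cells held 294, 526, 419 and 435 CPM, Foxp3+ T cells 105, 99.9, 173 and 108 CPM, and ILC2s 140, 330, 214 and 168 CPM over the 30 °C and then the 4 °C libraries. B cells (7.73 to 12.8 CPM), germinal centre B cells (4.33 to 8.04 CPM) and plasma cells (2.91 to 8.17 CPM) held little. Xcl1, the ligand that draws Xcr1+ DCs, was highest in Eomes+ Nkg7+ T cells, which held 55.3% of its UMIs. Cxcl10, a Cxcr3 ligand induced by interferon, was spread out, and the other αβ T cells held the largest part of its UMIs (31.4%). Cxcl2 in Foxp3+ T cells was at 31.3, 39.3, 17.9 and 36.6 CPM, the level next to that of macrophages. Ccl25 and Ccl27a, known from thymus and gut and from skin, were near even across types: B cells held 55.1% and 36.1% of the level of their highest type. Ccl27a in germinal centre B cells was at 12.5, 8.87, 6.97 and 5.56 CPM and Ccl25 at 4.81, 7.84, 5.36 and 8.33 CPM. Ccl27a, Ccl21a and Ccl19 have near-identical copies in the mouse genome, so their counts are uncertain.

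For 8 members the source rested on 1 cell, which held over 40% of the UMIs of that type, a limit chosen after the values had been seen. In stromal cells, 635 of the 646 UMIs of Cxcl9 in 4 °C replicate 1 came from 1 cell, and 97.4% of all its UMIs in that type. Of the Cxcl10 UMIs in stromal cells, 1 cell held 53.9%. In mature DCs, Cxcl13, the ligand that gathers Cxcr5+ B cells, was at 1795 CPM in 30 °C replicate 1 and 0 CPM in replicate 2, and 1 cell held 63.0% of it. In Eomes+ Nkg7+ T cells, 1 cell of 4 °C replicate 2 held 99.6% of the 239 UMIs of Ccl1, a Ccr8 ligand. The others were Ccl20 in Foxp3+ T cells (42.3%), Ccl19 in stromal cells (46.2%), Cxcl3 in ILC2s (66.7%) and Ccl21a (63.9%). UMIs of Cxcl13 were found in 5 DCs over the 4 libraries.

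The next question was whether 4 h of cold went with other ligand levels in macrophages. Of the 22 members that passed the filter on low counts, 6 were higher and 7 lower at 4 °C by the quasi-likelihood test of edgeR (p-values adjusted by Benjamini-Hochberg across every gene tested), where 15.2% of all 9297 genes tested were called (719 higher and 697 lower). Among the rises were Ccl12, Ccl7 and Ccl2, ligands of Ccr2. Among the falls were Cx3cl1 and the most abundant ligands of the cells at 30 °C, Pf4, Ccl6 and Ccl9. The summed level of all members in macrophages went from 15188 and 13401 CPM at 30 °C to 9227 and 10153 CPM at 4 °C. The median log2 fold change was 0.0014 over the 22 members and -0.0035 over all genes, as the directions were mixed.

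Ccl12, a mouse ligand of Ccr2, was at 44.7 and 44.8 CPM in the 30 °C libraries and 358 and 356 CPM in the 4 °C libraries. Its log2 fold change was 2.94 ± 0.11 (SE, n = 2 libraries per group, adjusted p by edgeR 1.04e-06). UMIs of Ccl12 were in 27 of 164 and 24 of 181 macrophages at 30 °C and in 174 of 439 and 51 of 159 at 4 °C, so more cells held it. Ccl7, which draws monocytes through Ccr2 and Ccr1, was at 64.9 and 56.0 CPM and then 427 and 450 CPM. It rose by 2.80 ± 0.11 on the log2 scale (adjusted p by edgeR 1.24e-06). Ccl2, the classical Ccr2 ligand, was at 120 and 197 CPM and then 519 and 473 CPM, and its log2 fold change was 1.59 ± 0.19 (adjusted p by edgeR 0.000545). All 3 had groups that did not overlap, and replicates lay closest together for Ccl12.

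Cxcl12 was at 35.1 and 41.4 CPM at 30 °C against 114 and 83.0 CPM at 4 °C, a rise of 1.35 ± 0.19 on the log2 scale (adjusted p by edgeR 0.00141). Cxcl9 and Cxcl10, the Cxcr3 ligands, rose too. Cxcl9 was at 141 and 106 CPM and then 206 and 317 CPM (log2 fold change 1.00 ± 0.20, adjusted p by edgeR 0.0107). It was found in 8 and 9 macrophages at 30 °C and in 27 and 20 at 4 °C. Of its UMIs, 1 cell held 144 of 237 and 81 of 189 at 30 °C and 244 of 779 and 190 of 466 at 4 °C. Cxcl10 was at 90.5 and 11.8 CPM and then 181 and 203 CPM (1.87 ± 0.49, adjusted p by edgeR 0.0331). The 2 libraries at 30 °C differed widely in Cxcl10, and it rested on few cells: 3 and 4 macrophages held a UMI at 30 °C and 33 and 19 at 4 °C. Of its UMIs, 1 cell held 115 of 152 and 12 of 21 at 30 °C and 354 of 683 and 164 of 299 at 4 °C. Without 30 °C replicate 1 its log2 fold change was 3.95 and without 30 °C replicate 2 it was 1.03. DESeq2 called neither Cxcl9 nor Cxcl10, and without 30 °C replicate 2 Cxcl9 was not called (adjusted p by edgeR 0.0504).

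Among the falls, Ccl6 was at 4642 and 3880 CPM at 30 °C against 1411 and 1441 CPM at 4 °C, and its log2 fold change was -1.63 ± 0.09 (adjusted p by edgeR 1.03e-05). Nearly every macrophage still held it, 416 of 439 and 145 of 159 at 4 °C. Ccl9, its neighbour on the chromosome, was at 2899 and 2377 CPM and then 872 and 1085 CPM (-1.49 ± 0.12, adjusted p by edgeR 9.11e-05). Pf4 was at 4302 and 4135 CPM and then 3369 and 2751 CPM (-0.51 ± 0.10, adjusted p by edgeR 0.00801). The fitted fall was smallest for Pf4, and the difference in size was not tested. Cxcl2 was at 1033 and 953 CPM and then 507 and 725 CPM (-0.75 ± 0.15, adjusted p by edgeR 0.00874), and Cxcl1 at 56.0 and 71.1 CPM and then 44.0 and 32.0 CPM (-0.74 ± 0.19, adjusted p by edgeR 0.0311). DESeq2 called neither of these neutrophil ligands, and Cxcl1 was not called without 30 °C replicate 2 (adjusted p by edgeR 0.173).

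Ccl17 was at 47.6 and 21.8 CPM at 30 °C, with 119 UMIs in 53 of 164 and 34 of 181 macrophages, and at 0 in both 4 °C libraries. Against a floor of 3 counts over the 4 °C group (0.572 CPM) it was at least 60.03-fold lower at 4 °C (adjusted p by edgeR 0.000497). That 0 depended on the filter of fewer than 5000 genes per cell. With no upper limit, 4 °C replicate 1 held 19 UMIs of Ccl17 (4.63 CPM) and replicate 2 none, and the log2 fold change was -3.43, still past the threshold. Cx3cl1 fell from 15.5 and 18.5 CPM to 2.65 and 1.36 CPM (log2 fold change -2.93 ± 0.39, adjusted p by edgeR 0.00113, and -3.63 without 4 °C replicate 1). Ccl22, the third gene of that cluster on chromosome 8, was at 2.72 to 5.96 CPM in macrophages and below the filter.

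**Figure D2:**
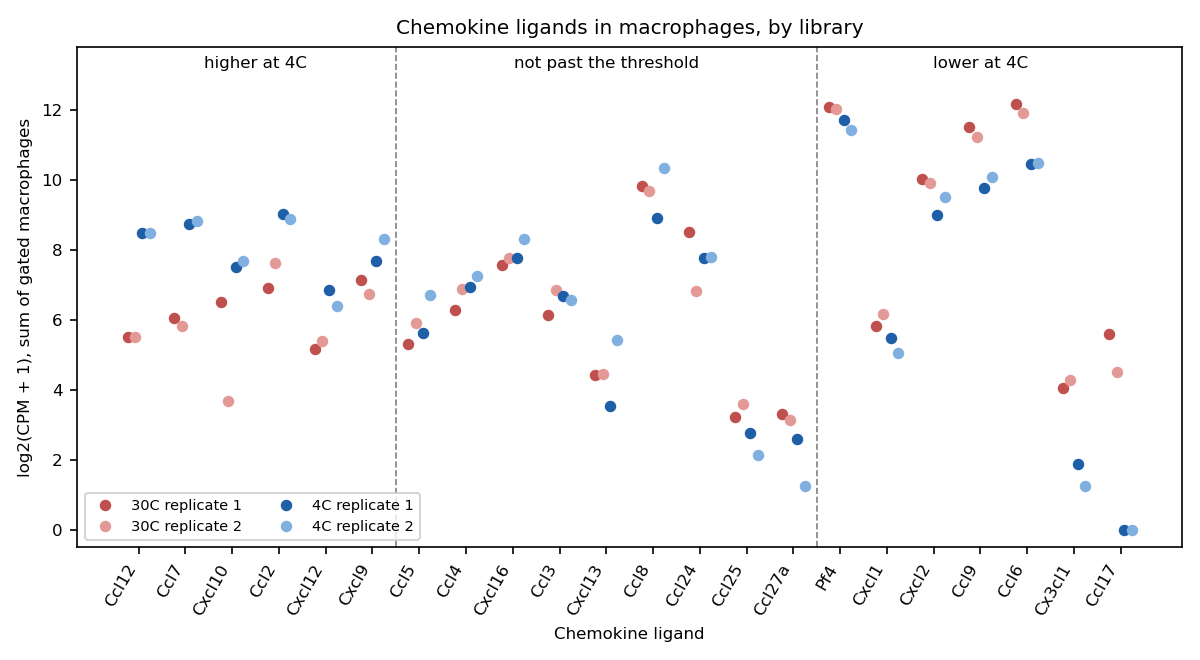
Levels of the 22 chemokine ligands tested in macrophages, as log2(CPM + 1) in each of the 4 libraries, with 6 members higher at 4 °C on the left, 9 not past the threshold in the middle and 7 lower on the right. Ccl12 and Ccl7 part the temperatures most among the rises, and Ccl17 is at 0 in both 4 °C libraries.

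The 9 members tested and not called were Ccl3, Ccl4, Ccl5, Ccl8, Ccl24, Ccl25, Ccl27a, Cxcl13 and Cxcl16. For Ccl4, Ccl25, Ccl27a and Cxcl16 the groups did not overlap, and how many of all genes tested met this was not counted. Ccl4 was at 76.2 and 117 CPM at 30 °C against 122 and 150 CPM at 4 °C (log2 fold change 0.41 ± 0.19, adjusted p by edgeR 0.195). Ccl8, an abundant ligand next to Ccl12, was at 903 and 820 CPM at 30 °C and at 477 and 1295 CPM at 4 °C, so that its lowest and its highest library were both from the cold. Ccl24, an eotaxin, was at 365 and 112 CPM and then 218 and 222 CPM. The other 10 members were below the filter in macrophages, at most 7.74 CPM in any library.

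Most macrophages carried at least 3 of the resident markers, a list with Mrc1, Folr2, Lyve1 and others (141, 154, 368 and 124 cells over the 4 libraries). In these alone, 7 of 22 members were higher and 7 lower (19.0% of all genes called), the added one being Ccl24, at 222 and 130 CPM and then 257 and 276 CPM (log2 fold change 0.55 ± 0.17, adjusted p by edgeR 0.0300). In the other macrophages, where the mean level of Itgax was 252 CPM and that of Trem2 249 CPM, 1 of the 15 members tested was called (0.464% of all genes): Ccl2, at 32.7 and 45.5 CPM and then 154 and 236 CPM (2.15 ± 0.35, adjusted p by edgeR 0.0329). Whether the 2 kinds of macrophage differ was not tested. Ccl9 was at 1635 and 1242 CPM and then 1429 and 1295 CPM in the latter, and Cxcl9 at 932 and 263 CPM and then 259 and 161 CPM. The list of 10 genes that tissue dissociation induces (Fos, Jun, Atf3, Hspa1a and others) also moved in all macrophages, from 6177 and 8271 CPM at 30 °C to 10382 and 9037 CPM at 4 °C, and its part in the ligand values was not tested.

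Neighbours on the chromosome were alike in some clusters and unlike in others. In the cluster with Ccl2, the genes Ccl2, Ccl7 and Ccl12 rose in macrophages while Ccl8, 11.8 kb from Ccl12, was not called, and Ccl11 and Ccl1 were below the filter. In the next cluster, Ccl9 and Ccl6, 9.25 kb apart, fell, while Ccl5, Ccl3 and Ccl4 were not called. In the Pf4 cluster, Pf4, Cxcl1 and Cxcl2 fell. Cxcl9 and Cxcl10 rose, and Cx3cl1 and Ccl17 fell. The fitted falls of Cxcl1 and Cxcl2 were of like size, and Cxcl3 was too low to test (3 UMIs or fewer in any macrophage library). Genes of a cluster arose by duplication and are not independent of each other.

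**Figure D3:**
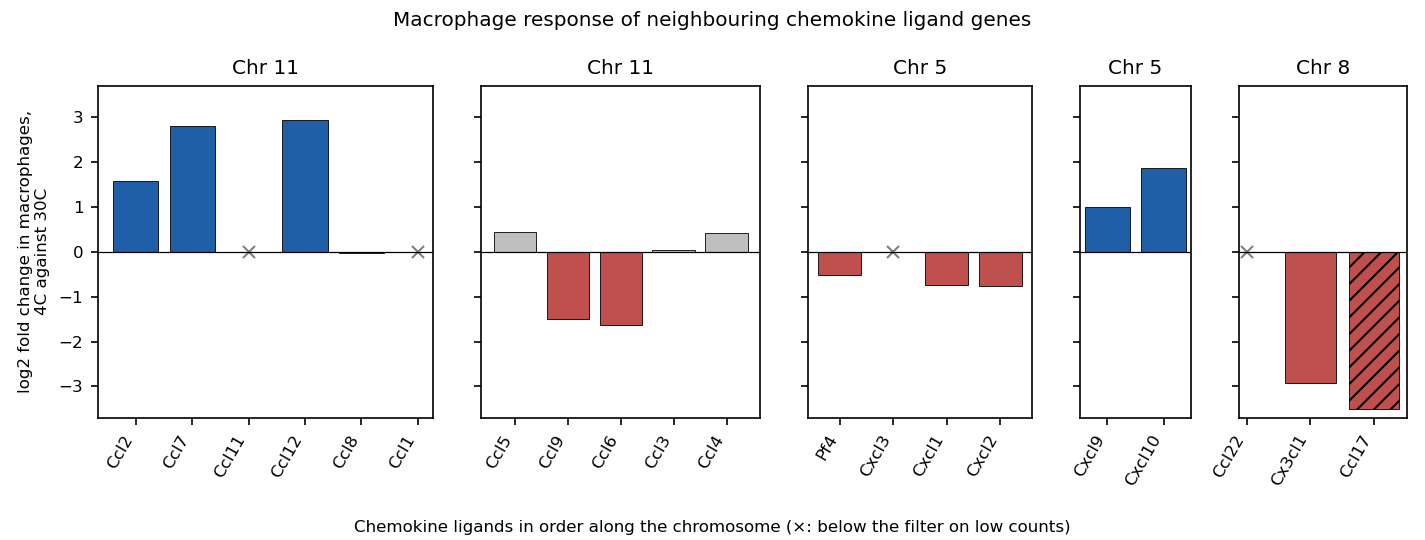
Log2 fold change (4 °C against 30 °C) of each chemokine ligand in macrophages, ordered along the gene clusters on chromosomes 5, 8 and 11. Blue bars are higher, red lower and grey not past the threshold, a cross marks a gene below the filter, and the hatched bar of Ccl17 is clipped because its 4 °C libraries are at 0. Rises and falls lie side by side in different clusters.

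Outside macrophages, all other gated cells were summed per library. Of 29 members tested 1 was higher and 0 lower by edgeR, where 0.649% of 14489 genes were called. An unadjusted p by edgeR under 0.05 was met by 18 of the 29 members and by 2972 of the 14489 genes. DESeq2 called 10 members higher and 1 lower, and its share over all genes was not counted. Ccl4 was the member called, at 3.81 and 2.92 CPM at 30 °C against 10.8 and 14.98 CPM at 4 °C (log2 fold change 1.85 ± 0.22, adjusted p by edgeR 0.0458), and the call was lost with doublets left out (0.0514) and without the limit of 5000 genes per cell, where the log2 fold change was 1.05. It was lost also without 30 °C replicate 1 (0.0530) or replicate 2 (0.0755). The median log2 fold change was 1.18 over the 29 members and 0.0013 over all genes. The summed level of all members was 518 and 516 CPM at 30 °C against 698 and 782 CPM at 4 °C, and that of the dissociation list was 1230 and 1152 CPM and then 1562 and 1475 CPM. This sum also moves with the mix of cell types, so each type was fitted on its own.

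In B cells, 1 of 14 members was higher and 2 lower (14.6% of all genes called). Ccl17 fell in the cell type that held most of it, from 58.0 and 49.1 CPM at 30 °C to 20.5 and 21.8 CPM at 4 °C (log2 fold change -1.44 ± 0.08, adjusted p by edgeR 3.91e-07). It was seen in 398 of 2187 and 334 of 2138 B cells at 30 °C and in 139 of 1781 and 181 of 2286 at 4 °C, and the call held under all 13 alternatives. Ccl4 rose from 0.389 and 1.24 CPM to 4.69 and 9.36 CPM (3.04 ± 0.41, adjusted p by edgeR 0.000378), in 6 and 12 cells at 30 °C and 21 and 37 at 4 °C. Its log2 fold change was 2.41 without 30 °C replicate 1, 4.07 without 30 °C replicate 2 and 2.43 without 4 °C replicate 2, each still called. Ccl25 was at 7.10 and 7.13 CPM and then 5.54 and 5.53 CPM (-0.47 ± 0.13, adjusted p by edgeR 0.0363), a call lost under 6 of 13 alternatives, each library left out among them. Ccl22 in B cells was at 5.35, 5.47, 2.57 and 5.07 CPM and was not called. The ILC2 list (7 of 8 genes detected) was at 64.9 and 64.4 CPM and then 24.7 and 31.8 CPM in B cells. Most of that level was Hs3st1, at a mean of 42.7 CPM in B cells against 2.88 CPM in ILC2s, while Il13 was at 1.91 CPM in B cells. The plasma cell list (5 of 5) was at 148 and 177 CPM and then 58.7 and 116 CPM. The part of these lists in the B cell values was not tested.

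Among the other αβ T cells, 2 of 13 members were higher and 1 lower (1.68% of all genes called). Ccl4 was at 2.86 and 9.56 CPM at 30 °C against 27.3 and 27.8 CPM at 4 °C (log2 fold change 2.06 ± 0.33, adjusted p by edgeR 0.0145), in 6, 17, 21 and 14 cells. Its log2 fold change was 3.20 without 30 °C replicate 2 and 1.46 without 30 °C replicate 1, and without the limit of 5000 genes per cell it was 0.75 and the call was lost, as with DESeq2 and with 1 marker more in the gate. Cxcl10 was at 32.8 and 21.3 CPM and then 48.0 and 52.0 CPM (0.83 ± 0.16, adjusted p by edgeR 0.0423), and was not called without 30 °C replicate 2, where its log2 fold change was 0.54, at a mitochondrial limit of 15% (0.67) or without the limit of 5000 genes per cell (0.58). Cxcl2 fell from 10.8 and 11.1 CPM to 3.00 and 2.21 CPM (-2.11 ± 0.24, adjusted p by edgeR 0.00335), in 18, 28, 14 and 11 cells. Ccl1, the third ligand of these cells, was at 20.2, 1.50, 49.1 and 10.1 CPM over the same libraries and was not called. The ILC2 list (8 of 8 genes detected) was at 56.5 and 45.2 CPM and then 145 and 122 CPM in these cells, and the γδ T cell list (6 of 6) at 57.5 and 62.4 CPM and then 33.5 and 34.4 CPM. Their part in the ligand values was not tested.

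In Eomes+ Nkg7+ T cells, 1 of 6 members was higher and 0 lower (0.977% of all genes called). Xcl1 was at 35.5 and 52.8 CPM at 30 °C against 110 and 238 CPM at 4 °C, in 3 of 57, 5 of 74, 11 of 75 and 30 of 112 cells. Of its UMIs, 1 cell held 9 of 18 and 28 of 37 at 30 °C and 23 of 87 and 123 of 366 at 4 °C. Its log2 fold change was 1.85 ± 0.34 (adjusted p by edgeR 0.0237) and 1.17 without 4 °C replicate 2, and the call was lost without the limit of 5000 genes per cell, where the log2 fold change was 0.37, with 1 marker more in the gate and at a mitochondrial limit of 15% (adjusted p by edgeR 0.0529). With clusters in place of gates the log2 fold change was 7.31. Ccl4 was at 122, 22.8, 89.7 and 135 CPM and Ccl3 at 23.7, 15.7, 40.4 and 132 CPM over the libraries in the same order, neither past the threshold. The median depth of these cells was 12098 UMIs in 4 °C replicate 2 against 7456 to 8480 in the other libraries. The proliferation list (3 of 3 genes detected) was at 205 and 284 CPM and then 386 and 510 CPM, and the plasma cell list (5 of 5) at 3741 CPM in 30 °C replicate 2 against 83.3 to 154 CPM in the others. The part of depth and of these lists in the Xcl1 values was not tested.

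No member was called by edgeR in the other 7 types tested. In mature DCs 0 of 10 members were called (0.867% of all genes). There, 4 of the 10 members and 868 of 7155 genes had an unadjusted p by edgeR under 0.05. Ccl22 in DCs was at 525 and 629 CPM and then 1290 and 847 CPM (log2 fold change 0.85 ± 0.19, adjusted p by edgeR 0.0790). Cxcl16 in DCs was at 680 and 656 CPM and then 938 and 860 CPM (0.39 ± 0.12, adjusted p by edgeR 0.205). For both ligands the groups did not overlap, a condition not counted over all genes. In stromal cells 0 of 9 members were called (0.396% of all genes). There, 8 of the 9 members and 424 of 4036 genes had an unadjusted p by edgeR under 0.05. The summed level of the members in stromal cells was 959 and 1681 CPM at 30 °C against 4883 and 2739 CPM at 4 °C. Ccl7 there was at 0 and 12.6 CPM and then 783 and 141 CPM (adjusted p by edgeR 0.0621), with 88.2% of its UMIs in 1 cell, and Cxcl1 at 0 and 4.21 CPM and then 135 and 56.3 CPM (adjusted p by edgeR 0.0586). Cxcl9 in stromal cells was at 5.89, 0, 1475 and 20.1 CPM and was below the filter. The dissociation list in stromal cells was at 4790 and 4326 CPM and then 7988 and 6269 CPM, and neither its part nor that of the depth named above was tested.

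In γδ T cells 0 of 6 members were called (6.26% of all genes). There, 1 of the 6 members and 1717 of 8559 genes had an unadjusted p by edgeR under 0.05. Ccl5 in γδ T cells was at 1431 and 32.9 CPM at 30 °C against 58.5 and 1384 CPM at 4 °C, so the replicates of each group lay far apart. The 4 genes of the Eomes Nkg7 list moved with it, at 456, 44.0, 64.1 and 281 CPM, as did the NK list at 110, 6.08, 0 and 104 CPM with 2 of 5 genes detected. Their part in the Ccl5 level was not tested. Xcl1 in γδ T cells was at 24.2, 0.358, 0 and 132 CPM and Ccl4 at 9.33, 0.358, 0 and 40.8 CPM, in the same order of libraries. The remaining types were Foxp3+ T cells (0 of 9 members, 2 at an unadjusted p under 0.05, 5.47% of all genes called), germinal centre B cells (0 of 4, 1 unadjusted, 2.31% called), plasma cells (0 of 3, 1 unadjusted, 0.423% called) and ILC2s (0 of 3, 1 unadjusted, 2.53% called). Over all genes the unadjusted counts were 2237 of 10705 in Foxp3+ T cells and 1155 of 9013 in germinal centre B cells. They were 749 of 7564 in plasma cells and 932 of 6530 in ILC2s. Cxcl10 was at 27.3 and 13.9 CPM and then 33.4 and 33.5 CPM in Foxp3+ T cells, at 21.5 and 41.6 CPM and then 47.4 and 72.9 CPM in ILC2s, and at 4.14 and 7.01 CPM and then 44.0 and 8.44 CPM in plasma cells. In each of these 3 types its 4 °C libraries lay above those at 30 °C without passing the threshold, a condition not counted over all genes. Ccl17 in plasma cells was at 10.5 and 3.50 CPM and then 3.27 and 2.92 CPM, and Cxcl2 in ILC2s at 14.3, 4.16, 9.12 and 16.6 CPM.

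Over the 10 types tested outside macrophages there were 7 calls of 6 members in 3 types. With macrophages, 16 of the 32 members were called somewhere of the 27 that could be tested in any type. The other 5 (Ccl19, Ccl20, Ccl21a, Cxcl3 and Cxcl17) were below the filter in each type tested. Of these, Ccl21a and Cxcl17 were highest in lymphatic endothelial cells, which were too few for a test. The share of all genes called in any of the types was not counted. In single types it ran from 0.396% in stromal cells to 15.2% in macrophages.

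**Figure D4:**
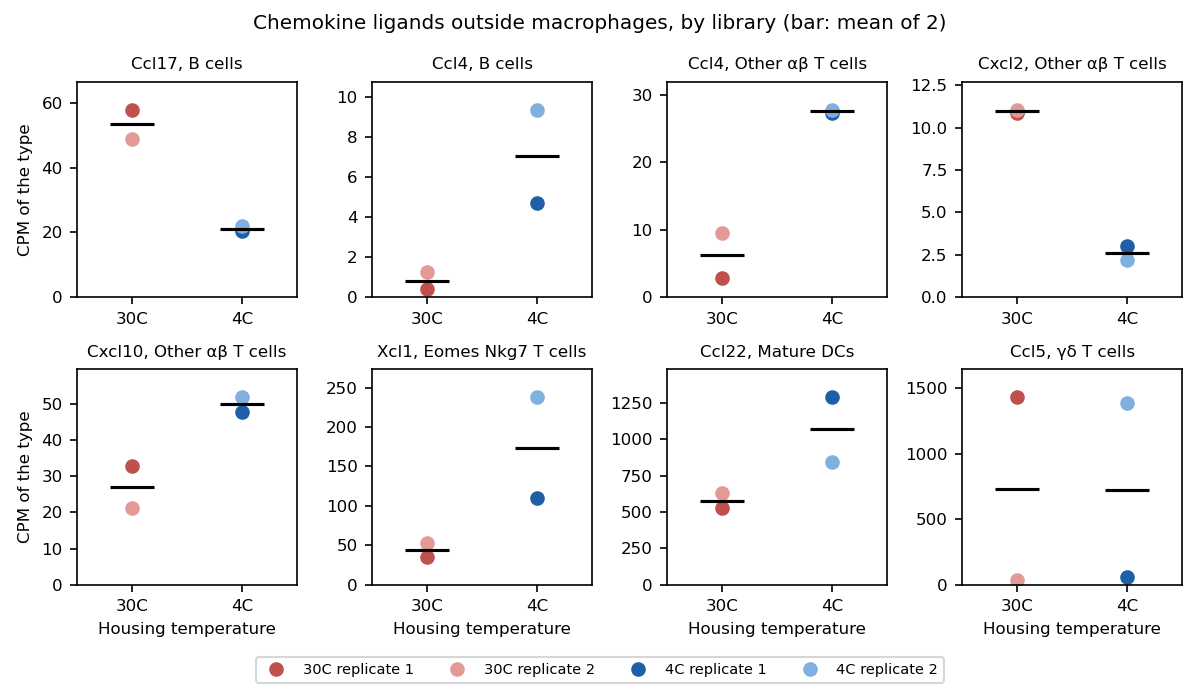
Levels in CPM of the chemokine ligands in cell types outside macrophages, 1 panel per ligand and type, with a point for each library (30 °C on the left, 4 °C on the right) and a bar at the mean of each group. Ccl17 falls in B cells, from 58.0 and 49.1 to 20.5 and 21.8 CPM, while Ccl5 in γδ T cells parts the replicates of both groups.

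A call in macrophages and none elsewhere does not show a difference, so the interaction of cell type (macrophages against all other gated cells) and temperature was fitted with the library as a factor. Of 30 members tested, 13 had an effect that differed by edgeR with Benjamini-Hochberg adjustment, where 6.56% of 14361 genes did. For 11 the effect in macrophages lay below that outside, and for 2, Cxcl10 and Cxcl13, above. Ccl3 is an example, with a log2 fold change of 0.04 in macrophages and 1.85 outside (difference -1.67 ± 0.28, adjusted p by edgeR 1.46e-05). For Ccl4 these were 0.41 and 1.85 (-1.34 ± 0.21, adjusted p by edgeR 5.82e-06), the same order as for Ccl3. The sum outside macrophages also moves with the mix of cell types. Mature DCs in it, for example, numbered 71 and 49 cells at 30 °C against 100 and 82 at 4 °C. The part of the mix in these differences was not tested.

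Cxcl1 had opposite fitted signs, -0.74 in macrophages and 1.83 outside, where stromal cells and DCs held most of it (difference -2.59 ± 0.44, adjusted p by edgeR 1.53e-05). The effect outside was not called on its own (adjusted p by edgeR 0.169). Of its 59 UMIs in stromal cells of 4 °C replicate 1, 34 came from 1 cell. Of its 21 UMIs in DCs of 30 °C replicate 1, 18 came from 1 cell. Ccl7 rose in macrophages by 2.80, and the fitted log2 fold change outside was 5.14 from 0.158 and 0.110 CPM to 8.61 and 1.66 CPM (difference -2.09 ± 0.56, adjusted p by edgeR 0.00986). Of the 380 UMIs of Ccl7 outside macrophages in 4 °C replicate 1, 336 came from 1 stromal cell, and without that library the difference was -0.66 (adjusted p by edgeR 0.636). Ccl9 fell in macrophages by 1.49 on the log2 scale against -0.70 outside (difference -0.74 ± 0.20, adjusted p by edgeR 0.0126). For Ccl2 (1.59 and 1.76) and Cxcl12 (1.35 and 1.56) no difference was found, with an SE of the difference of 0.27 and 0.29. Much of the Ccl2 outside macrophages came from few cells. In stromal cells of 4 °C replicate 1, 1 cell held 89 of 95 UMIs. In lymphatic endothelial cells, 1 cell held 34 of 34 in 30 °C replicate 1 and 57 of 58 in 4 °C replicate 2. For Ccl6 the difference was -0.39 ± 0.22 (adjusted p by edgeR 0.420). The Cxcl9 and Cxcl13 differences also rested on single cells, named above, and each changed sign without 1 library: -2.68 for Cxcl9, 0.22 without 4 °C replicate 1, and 3.06 for Cxcl13, -0.999 without 30 °C replicate 1. Without 4 °C replicate 1, 3 of the 13 differences were past the threshold, and without 4 °C replicate 2, 7 were.

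**Figure D5:**
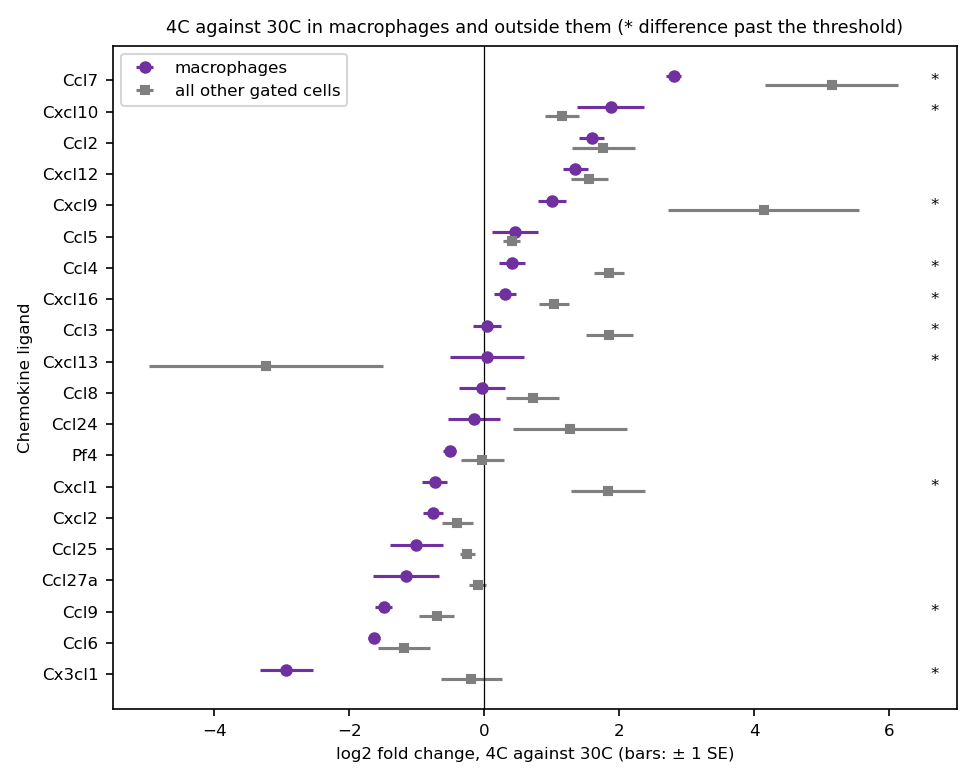
Log2 fold change (4 °C against 30 °C) of each chemokine ligand in macrophages and in all other gated cells, fitted separately, with standard errors. An asterisk marks an interaction past the threshold. Ccl17 is left out because its macrophage libraries at 4 °C are at 0.

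The receptors of these ligands were read from a list of 22 genes. In macrophages 5 were tested, of which 2 rose and 1 fell (15.2% of all genes called). Ccr2, the receptor of Ccl2, Ccl7 and Ccl12, was at 61.3 and 99.6 CPM at 30 °C against 587 and 471 CPM at 4 °C (log2 fold change 2.66 ± 0.20, adjusted p by edgeR 4.69e-05). Cx3cr1, the receptor of Cx3cl1, was at 19.7 and 23.0 CPM and then 62.5 and 63.9 CPM. In resident macrophages alone it was at 1.39 and 6.76 CPM and then 50.8 and 41.4 CPM. So in the summed macrophages Cx3cl1 fell while its receptor rose, and whether single cells held both was not examined. Cxcr4, the receptor of Cxcl12, went the other way, from 205 and 221 CPM to 61.2 and 89.1 CPM (-1.62 ± 0.16, adjusted p by edgeR 0.000217).

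Outside macrophages 20 receptors were tested, with 0 higher and 1 lower (0.649% of all genes called): Cxcr4, at 181 and 193 CPM and then 106 and 121 CPM (log2 fold change -0.81 ± 0.08, adjusted p by edgeR 0.0342). By type, Cxcr4 was called lower in B cells, Foxp3+ T cells, Eomes+ Nkg7+ T cells, the other αβ T cells and γδ T cells, with log2 fold changes from -0.72 to -1.23. Receptors called in either direction were 2 of 14 in B cells (14.6% of all genes called), 2 of 13 in Foxp3+ T cells (5.47%), 2 of 6 in Eomes+ Nkg7+ T cells (0.977%), 2 of 15 in the other αβ T cells (1.68%), 3 of 10 in γδ T cells (6.26%), 1 of 7 in ILC2s (2.53%) and 1 of 7 in germinal centre B cells (2.31%). Ccr2 fell in T cells as it rose in macrophages: from 109 and 115 CPM to 79.5 and 65.1 CPM in the other αβ T cells (-0.69 ± 0.11, adjusted p by edgeR 0.0170), and by 1.84 on the log2 scale in Eomes+ Nkg7+ T cells. Cxcr6, the receptor of Cxcl16, was called higher in ILC2s (354 and 287 CPM, then 479 and 485 CPM), γδ T cells and germinal centre B cells. Ccr6, the receptor of Ccl20, was called higher in B cells and γδ T cells, and Ccr4, that of Ccl17 and Ccl22, in Foxp3+ T cells. In mature DCs, plasma cells and stromal cells no receptor was called.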

How the data were processed

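The deposited values are UMI counts per gene and cell, which the authors made in Cell Ranger (3.0.0 in the file headers and methods, 3.1.0 in the submitters' processing notes) on mm10, raw and without normalization. Per library, cells with at least 100 genes were kept, then cells with over 200 and under 5000 genes and under 7.5% mitochondrial counts. For these later limits only genes in at least 10 cells were counted, while the sums took all genes. Cells were placed in a type by at least 3 of its marker genes, and cells of several types were left out. All αβ T cells also needed Trac, and Foxp3+ T cells Foxp3. Eomes+ Nkg7+ T cells needed Eomes, and for them and for ILC2s 1 marker fewer of their list was enough. ILC2s also had to lack Trac and Cd3d. UMIs were summed per library and type.

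Sums at 4 °C and 30 °C were compared with edgeR 4.0.16 in R 4.3.3 (TMM, filterByExpr, quasi-likelihood test, Benjamini-Hochberg over all genes, threshold 0.05) in types with 20 or more cells in every library. Standard errors were taken from the fold change and the F statistic. With 2 libraries per group, p-values measure the spread between pools of mice. DESeq2 1.42.0, clusters from Seurat 5.3.0, Scrublet (scanpy 1.11.5, 2.53% of cells marked) and other filters were alternatives. The tests were checked on simulated data. Intervals and floors cover counting error only.

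The members, receptor list and marker lists were chosen with earlier results of these data known. Values per library are given for members past the threshold in any type and for the 3 leading members of each type. Other values, and the gate rule, were chosen after values had been seen. 1 gene of the receptor list is not reported here and is left out of its counts. Flow cytometry and imaging were not analysed here.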

Additional observations from a re-analysis of the deposited data

Results flagged for a closer look

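The interaction of temperature with cell type, macrophages against all other gated cells, was past the threshold for 13 members, tested by edgeR's quasi-likelihood test with Benjamini-Hochberg adjustment (6.56% of all genes). Each value is the log2 fold change (4 °C against 30 °C) in macrophages minus that outside them. The sum outside also moves with the mix of cell types, and no cause of any of these differences was tested.

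The difference was -11.06 for Ccl17, a value that depends on the prior count because both macrophage libraries at 4 °C were at 0, and Ccl17 was called under all 12 settings tried. For Ccl3 it was -1.67, for Ccl4 -1.34 and for Cxcl1 -2.59, each called under 11 of 12. Of the Cxcl1 UMIs in stromal cells 45.9% came from 1 cell. For Cx3cl1 the difference was -2.90, for Ccl9 -0.74, for Ccl11 -3.12 and for Ccl22 -1.85, each called under 9 of 12. Ccl11 and Ccl22 were below the filter in macrophages alone, so these differences compare low macrophage counts with stromal cells and mature DCs.

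The remaining differences were called under 8 settings or fewer. They were -2.09 for Ccl7, -0.71 for Cxcl16 and -2.68 for Cxcl9 (8 of 12), 3.06 for Cxcl13 (7 of 12) and 0.93 for Cxcl10 (6 of 12). Of the Cxcl9 UMIs in stromal cells 97.4%, of the Ccl7 UMIs in stromal cells 88.2%, and of the Cxcl13 UMIs in mature DCs 63.0%, came from 1 cell.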

How the results depend on the processing

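Of the 21 calls in single types or in the sum outside macrophages, 21 were kept with DESeq2's size factors in edgeR, with no filter on low counts and with a replicate block. With doublets left out 20 were kept, with a mitochondrial limit of 15% 19, with 1 marker more in the gate 19, without the limit of 5000 genes per cell 16 and with DESeq2 15. With clusters in place of gates 17 of 17 were kept. The sum outside macrophages was not run with clusters, since several T cell clusters carried no name. Leaving out 30 °C replicate 2 kept 16, 30 °C replicate 1 kept 19, and either 4 °C library kept 20. Where an arm was left with 1 library, that library is assumed to vary like the others.

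In macrophages with fewer than 3 resident markers, 1 member was higher and 0 were lower, with Cxcl1 at 0.20 and Cxcl9 at -1.56 in place of -0.74 and 1.00. The cause was not tested, and fewer cells are in that sum. Resident macrophages alone kept 13 of 13 calls.

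The counts below are of members only, and the share of all genes called was not counted under the alternatives. Outside macrophages, members higher and lower (as reported 1 and 0) were 0 and 0 with no upper limit or without doublets, 1 and 1 at 15% mitochondrial counts, 10 and 1 with DESeq2, and 1 and 1 with no filter. In B cells (as reported 1 and 2) they were 2 and 1 with no upper limit, 1 and 4 with clusters or without doublets, 1 and 1 with DESeq2 and 2 and 4 with no filter. In Eomes+ Nkg7+ T cells (as reported 1 and 0) 0 were higher at 15% mitochondrial counts, with no upper limit and with 1 marker more, and 4 with no filter. In the other αβ T cells (as reported 2 and 1) 1 was higher at 15% mitochondrial counts, 0 with no upper limit, 1 higher and 2 lower with DESeq2, and 6 and 3 with no filter.

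Types with no call as reported gained some. With no filter these were 2 and 2 in mature DCs, 2 and 2 in plasma cells, 3 and 2 in Foxp3+ T cells, 7 and 1 in stromal cells, 1 higher in γδ T cells and 1 lower in germinal centre B cells. With clusters, 1 was lower in mature DCs and 1 higher in stromal cells. With 1 marker more, 1 was higher in Foxp3+ T cells and 2 in stromal cells, and DESeq2 called 1 higher in stromal cells.

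The main fits did not pair libraries by replicate number. Deviations of same-numbered libraries correlated between -0.28 and 0.15 over the types, which does not settle whether they were paired. With the replicate block, 8 members were higher and 1 lower outside macrophages, 7 and 1 in stromal cells, 5 and 2 in the other αβ T cells, 4 lower in B cells, 3 higher in Eomes+ Nkg7+ T cells, 2 higher in γδ T cells and 1 higher in mature DCs. With the numbers crossed, an alternative added after seeing the data, 1 was higher and 1 lower in mature DCs and 2 higher in γδ T cells.

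Leaving out each library in turn, members higher ranged from 6 to 11 in macrophages, 1 to 7 outside them, 1 to 3 in B cells and in mature DCs, 1 to 4 in Eomes+ Nkg7+ T cells and in the other αβ T cells, 0 to 3 in Foxp3+ and in γδ T cells, 3 to 8 in stromal cells, 0 to 2 in plasma cells and 0 to 1 in ILC2s. Members lower ranged from 7 to 9 in macrophages, 1 to 3 in B cells, 1 to 2 in the other αβ T cells, 0 to 2 in mature DCs, and 0 to 1 outside macrophages and in the remaining types.

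Interactions, an alternative set added after seeing the data, counted 11 members below and 2 above as reported. They were 10 and 1 with DESeq2's size factors and at 15% mitochondrial counts, 7 and 1 with no upper limit, 8 and 0 with 1 marker more, and ranged from 3 to 12 below and 0 to 1 above with a library left out. The source of a member was the same for 28 of 32 with 1 marker more, 25 with clusters, 31 without doublets and 29 by UMIs per cell. Depth limits what could be tested: Ccl19, Ccl20 and Cxcl3 were below the filter in each type tested.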
